A study of Mus musculus with 13 samples.

Results

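Sox9 peaks were described around 4 genes of bone morphogenetic protein (BMP) signalling, the ligand genes Bmp2 and Gdf5, the receptor gene Bmpr1b and the antagonist gene Nog. The members were all peaks whose centre lay in fixed windows of the mouse genome (build mm9, positions counted from 1), at chromosome 2, 133150000 to 133700000 for Bmp2, chromosome 2, 155690000 to 155850000 for Gdf5, chromosome 3, 141440000 to 141900000 for Bmpr1b, and chromosome 11, 88950000 to 89350000 for Nog. The windows are defined by position and were chosen with earlier results of these data known. They held 33 of the 27656 rib peaks and 13 of the 17440 nasal peaks, 46 members in all. The series profiled chondrocytes, the cells of cartilage, from untreated wild-type ICR mice by ChIP-seq. The rib chondrocytes were taken at postnatal day 1 and the nasal septum chondrocytes at embryonic day 17.5, both after enzyme digestion. There was 1 Sox9 library per tissue, so no difference between tissues could be set against replicate error, and stage differed together with tissue. The lists give positions without height or significance, so the depth behind a peak is unknown, and the lack of a peak means that none reached the authors' list. The whole rib list is labelled unfiltered and the nasal list is not, so rib and nasal counts may come from lists that were filtered differently. No expression value accompanied the peaks, so the labelled cell type was not checked against marker genes.

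BMPs are secreted ligands of the TGF-β superfamily that join type I and type II receptor kinases, which phosphorylate SMAD proteins that then enter the nucleus. Antagonists outside the cell bind the ligands and keep them from the receptors. In growing cartilage this signalling promotes the formation, proliferation and maturation of chondrocytes, and its restraint is needed where joints form. Sox9 is an HMG-box transcription factor without which chondrocytes do not form.

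Bmpr1b is shown here with sequence before its start sites, because SOX factors recognise short motifs of the AACAAT or ACAAAG kind. RefSeq promoter sequences (GRCm38.p6) matched 1 of the 4 genes, Bmpr1b, and not Bmp2, Gdf5 or Nog, so only Bmpr1b could be shown. That table gives 3 start sites of Bmpr1b. The 250 bases before each of the 2 farthest upstream follow, 5′ to 3′ on the strand of the gene, with matches to AACAAT or ACAATG or ACAAAG on either strand in capitals. The first lies at chr3:141982265-141982514 and the second at chr3:141931589-141931838, both on the minus strand of GRCm38.p6, and these positions cannot be compared with those of the mm9 peaks.
Bmpr1b start 1: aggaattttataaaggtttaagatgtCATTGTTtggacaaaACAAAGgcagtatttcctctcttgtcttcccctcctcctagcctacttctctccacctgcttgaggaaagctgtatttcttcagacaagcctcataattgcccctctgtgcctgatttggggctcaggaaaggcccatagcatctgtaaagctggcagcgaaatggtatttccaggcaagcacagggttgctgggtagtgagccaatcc
Bmpr1b start 2: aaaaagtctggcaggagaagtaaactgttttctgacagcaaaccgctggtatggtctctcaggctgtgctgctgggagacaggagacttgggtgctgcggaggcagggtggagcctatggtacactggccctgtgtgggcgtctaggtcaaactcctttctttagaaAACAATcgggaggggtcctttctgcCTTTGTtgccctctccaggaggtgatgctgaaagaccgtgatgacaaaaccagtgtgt
Start 1 held 3 matches, of which the reverse complements of ACAATG and AACAAT overlap in a single run, and start 2 held 2 matches. The stretch before the other start site, which overlaps that of start 2 and is not printed, held 1 match. It is the same CTTTGT that was counted for start 2. At least 1 of the 3 motifs occurred in 29.6% of all 32841 RefSeq promoter stretches of the same length. A match is a run of letters and was not tested as a Sox9 site.

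The rib list had more Sox9 peaks than the nasal list in the windows of Bmp2, Gdf5 and Bmpr1b, and as many in that of Nog. The rib list counted 9 peaks at Bmp2, 8 at Gdf5, 12 at Bmpr1b and 4 at Nog, and the nasal list 0, 4, 5 and 4. Together this came to 0.394 nasal peaks per rib peak in the windows, beside 0.631 in the whole lists. By window the ratio was 0 at Bmp2, 0.5 at Gdf5, 0.417 at Bmpr1b and 1 at Nog. Per Mb, the windows held 21.0 rib peaks (95% exact Poisson interval 14.5 to 29.5) and 8.28 nasal peaks (4.41 to 14.2), beside 10.5 and 6.62 in the whole lists. The rib and nasal lists held 11.6 and 7.47 per Mb on chromosome 2, and 9.90 and 5.92 on chromosome 3. On chromosome 11 they held 15.9 and 11.1. These intervals, and the binomial ones below, cover counting error alone and are too narrow, because neighbouring peaks are not independent.

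Most of the rib members were Class II, the larger of the classes into which the authors divided the rib peaks by a rule that none of the sources used here states. The windows held 4 Class I peaks and 29 Class II peaks, so Class I made up 12.1% (95% exact binomial interval 3.40% to 28.2%), beside a background of 24.6% of all rib peaks. Nasal peaks overlapped 8 of the 33 rib members by at least 1 bp, or 24.2% (11.1% to 42.3%), beside 42.8% of all rib peaks. Of the Class I members, 3 of 4 were overlapped, beside 68.8% of all Class I peaks, and of the Class II members 5 of 29, or 17.2% (5.85% to 35.8%), beside 34.4% of all Class II peaks. Seen from the nasal list, rib peaks overlapped 8 of the 13 nasal members, or 61.5% (31.6% to 86.1%), beside 68.2% of all nasal peaks. Leaving out the Bmp2 window, nasal peaks overlapped 8 of 24 rib members, or 33.3% (15.6% to 55.3%), and at Bmp2 they overlapped 0 of 9. The interval over all 33 rib members ended just below 42.8%, whereas the interval without Bmp2 included it. The intervals of the Class I share, of the overlapped Class II members and of the nasal members also included their backgrounds. All these intervals are too narrow, so an end close to a background decides nothing. No test of these differences was made, because the members were chosen with earlier results known.

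**Figure D1:**
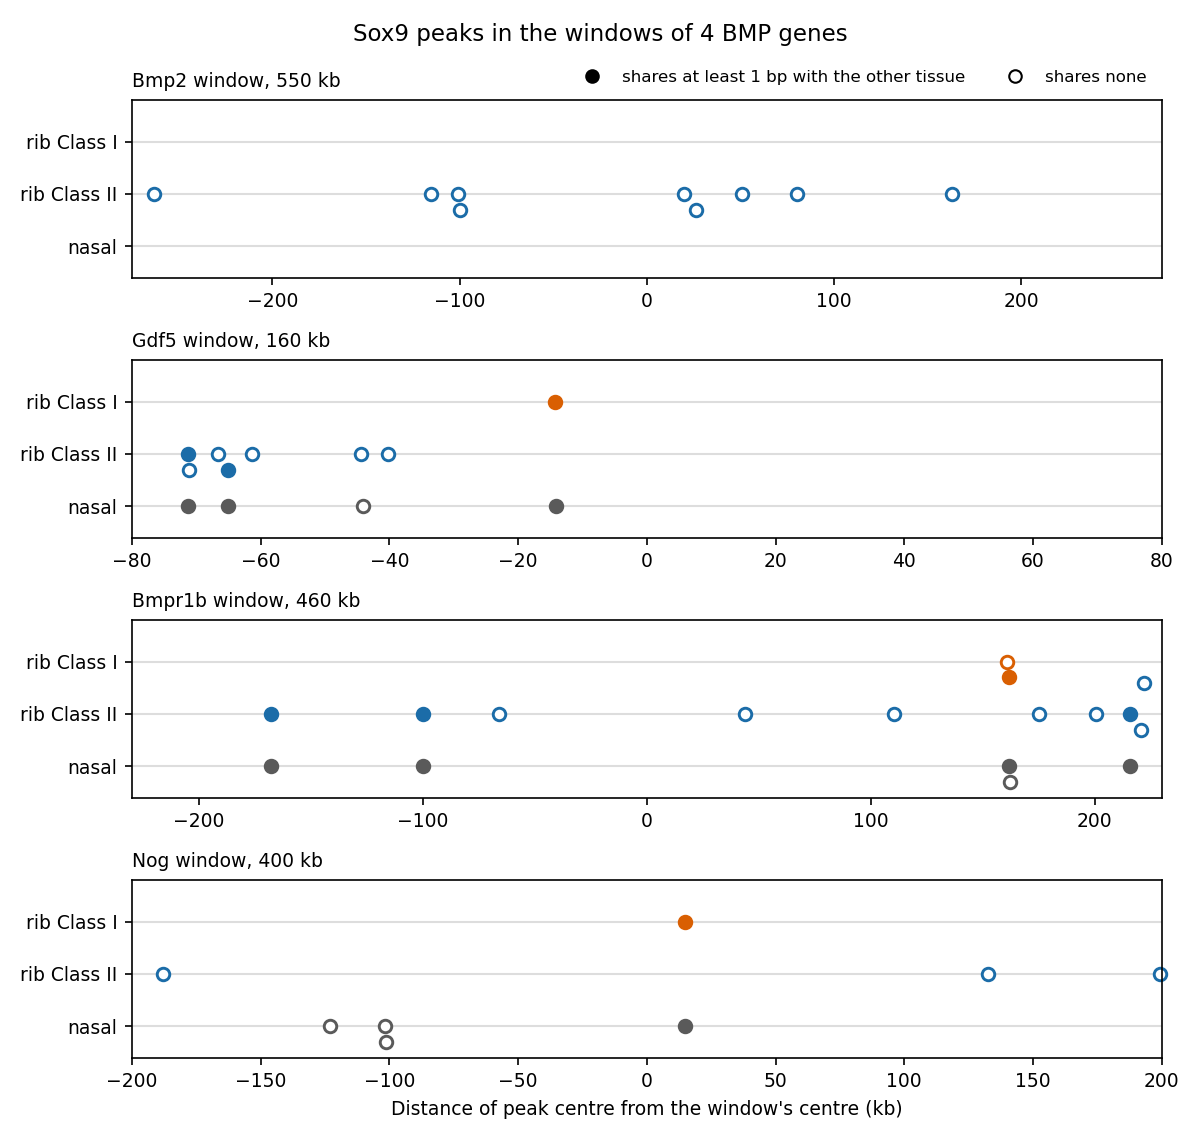
Position of each Sox9 peak in the 4 windows, as the distance of its centre from the centre of the window in kb, with rib Class I, rib Class II and nasal peaks on separate rows (crowded symbols are set off vertically). Filled symbols share at least 1 bp with a peak of the other tissue: none of the 9 at Bmp2, 3 pairs at Gdf5, 4 at Bmpr1b and 1 at Nog.

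**Figure D2:**
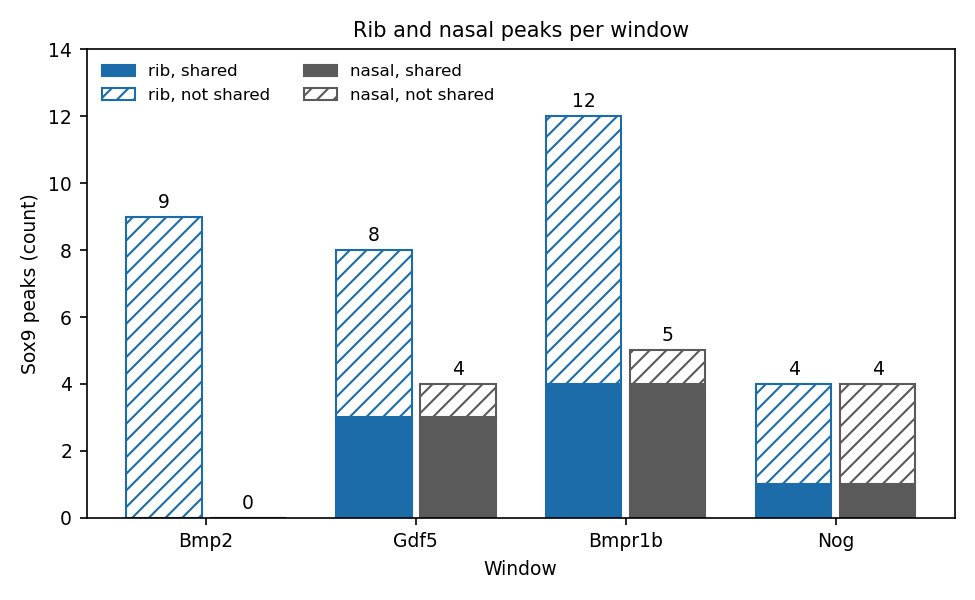
Number of Sox9 peaks in each window, rib in blue on the left and nasal in grey on the right, with the part shared with the other tissue filled and the rest hatched. The Bmp2 window has 9 rib peaks and no nasal peak, and the Nog window has 4 of each with 1 shared.

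Bmp2 encodes a ligand that drives cells into the cartilage lineage and chondrocytes towards maturation. Its window held 9 rib peaks, all of Class II, and no nasal peak. The 2 earliest in the rib list lay at chromosome 2, 133505229 to 133505511, the widest of the window with 283 bp and at place 2348, and at 133309811 to 133310002, at place 2946. The other 7 stood between places 6830 and 21277. Of the outermost peaks, the one at 133161906 to 133162123 stood at place 9432 and the one at 133588124 to 133588184 at place 19327. A further single peak at 133475844 to 133475976 stood at place 13056. The rest lay in the pairs described next. Of the 9 peaks, 4 had a rib neighbour within 10 kb, as a pair 543 bp apart that began at 133324349 and a pair 6.32 kb apart that began at 133444869. No chain of 3 or more peaks with gaps of at most 10 kb occurred in the window. The longest stretch between its rib peaks ran for 148 kb, from 133162124 to 133309810.

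The nearest nasal peak lay between 306 kb and 505 kb from the rib peaks of Bmp2. The window was part of a stretch of 1074 kb without a nasal peak, from 132819628 to 133893843, which held 11 rib peaks in all, each of Class II. These are the 9 of the window and 2 before it. Between adjacent nasal peaks, 17248 such stretches were found genome-wide. At least 11 rib peaks stood in 23 of them, or 0.133%, and 423 were at least as long, or 2.45%. The stretches are of every length and 8579 of them held no rib peak. The 0.133% is therefore not matched for length and does not show a high density of rib peaks. When the genome was divided into adjoining bins of 550 kb, the length of the window, at least 9 rib peaks stood in 1301 of 4780 bins, or 27.2%. Among those 1301 bins, 3 held no nasal peak, or 0.231%. They include bins with more than 9 rib peaks, so the 0.231% is not matched for the number of rib peaks. The window was chosen with earlier results of these data known, so these shares are a description, without a test. The rib peak next to the end of the stretch, at 133893882 to 133894015, lay within a nasal peak and stood at place 2434 in the rib list, with the nasal peak at place 930 in its own.

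**Figure D3:**
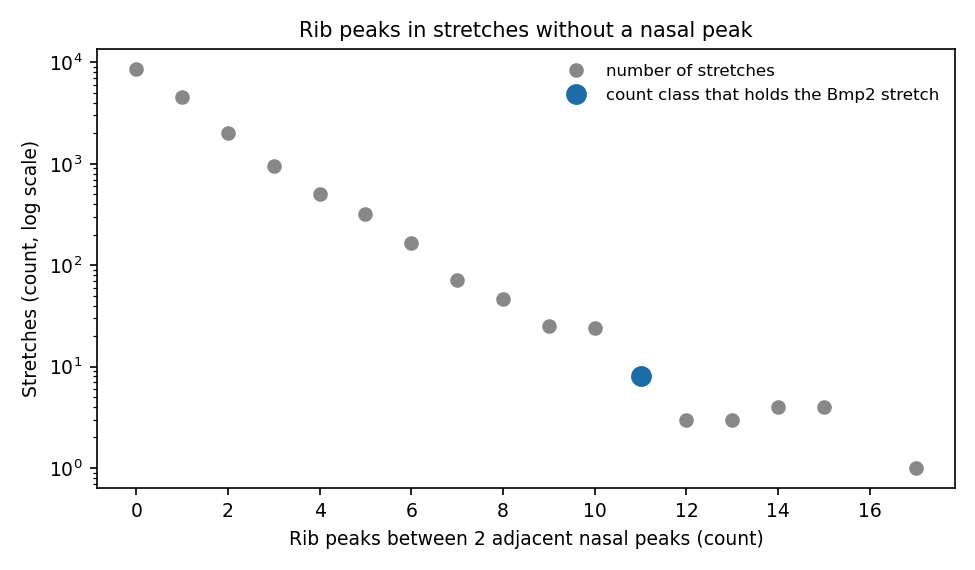
Number of stretches between adjacent nasal peaks, of every length, (log scale) against the number of rib peaks in the stretch. The stretch around Bmp2 belongs to the blue point at 11 rib peaks, and 23 of the 17248 stretches hold 11 or more.

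Gdf5 encodes a ligand that marks forming joints in the mouse limb. Its window of 160 kb was the densest of the 4, with 8 rib peaks and 4 nasal peaks, or 50.0 and 25 per Mb. Among 16452 adjoining bins of 160 kb, 4.42% held at least 8 rib peaks and 9.65% at least 4 nasal peaks. All 12 peaks lay before the centre of the window. A chain of 11 rib peaks, all of Class II, ran over 36.2 kb from 155672550 to 155708721, and 5 of them fell in the window, the others before its edge. The nearest rib peak outside lay 1.26 kb before that edge, at place 21308. Nasal peaks overlapped 5 of the 11 rib peaks of the chain, beside 34.4% of all Class II peaks and 42.8% of all rib peaks.

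The rib peak nearest to the top of its list among all 33 members stood at Gdf5, at 155725570 to 155725728 and place 403. It shared no base with a nasal peak, yet a nasal peak of 47 bp lay 77 bp away at 155725806 to 155725852, at place 3931, the earliest nasal member of all. Centres within 200 bp would count this pair as shared. The shared pairs at Gdf5 were 3. The rib peak at 155698470 to 155698805, the widest of the window with 336 bp, covered the whole of a nasal peak of 183 bp, and stood at place 24024, with the nasal peak at place 5369. The rib peak at 155704848 to 155705044, place 2161, covered the whole of a nasal peak of 31 bp at place 12807. The single Class I peak of the window, at 155755688 to 155755923 and place 20405, shared 121 bp with a nasal peak at place 9324. It stood 25.9 kb from the nearest other rib peak. No rib or nasal peak followed it in the window, and the next of each lay 120 kb beyond the edge.

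Bmpr1b encodes a type I receptor kinase through which Gdf5 signals. Its window held 12 rib peaks, 2 of Class I and 10 of Class II, and 5 nasal peaks, or 26.1 and 10.9 per Mb. Among 5716 adjoining bins of 460 kb, 13.5% held at least 12 rib peaks and 25.8% at least 5 nasal peaks. Nasal peaks overlapped 4 of the 12 rib peaks, or 33.3% (9.92% to 65.1%), beside 42.8% of all rib peaks. In turn, rib peaks overlapped 4 of the 5 nasal peaks, beside 68.2% of all nasal peaks. The 2 earliest rib peaks, both of Class II, were shared. The one at 141885572 to 141885873, place 1412, shared 63 bp with a nasal peak at place 5328, and the one at 141569783 to 141570027, place 1509, shared 227 bp with a nasal peak at place 9642, which is 92.7% of the rib peak and 96.6% of the nasal one. The first opened a chain of 3 Class II peaks over 6.43 kb that ended at 141892000, whose other peaks, the widest of the window with 390 bp among them, were not overlapped.

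Both Class I peaks of Bmpr1b lay side by side, 632 bp apart, at 141830784 to 141830850 and 141831483 to 141831617, places 17552 and 5368. The second lay wholly within a nasal peak of 290 bp at place 10924. The first lay 608 bp from the same nasal peak, and a further nasal peak of 191 bp began at 141832269, 651 bp beyond the second. The fourth shared pair, at 141501957 to 141502071, stood near the end of both lists, at places 24790 and 14675, although the rib peak lay wholly inside the nasal one and their centres were 8.5 bp apart. The remaining 5 Class II peaks, which began at 141604021, 141713561, 141780366, 141844844 and 141870475, stood at places 9043 to 18054 and lay 12.4 kb to 118 kb from the nearest nasal peak. Between the first of them and the next the rib list had no entry for 109 kb.

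Nog encodes noggin, a secreted antagonist that binds BMP ligands and without which joints do not form in the mouse. Its window of 400 kb held 4 rib peaks, 1 of Class I and 3 of Class II, and 4 nasal peaks, 10.0 of each per Mb. Both densities were below those of chromosome 11, at 15.9 rib and 11.1 nasal peaks per Mb. Among 6577 adjoining bins of 400 kb, 39.9% held at least 4 rib peaks and 28.0% at least 4 nasal peaks. The single Class I peak, at chromosome 11, 89164903 to 89164937, was the narrowest rib member of all with 35 bp. It lay wholly within a nasal peak of 187 bp at 89164899 to 89165085, the earliest nasal peak of the window at place 5803, while the rib peak stood at place 19623. This was the only pair shared at Nog. The 3 Class II peaks, at 88961780 to 88962040 (the widest of the window with 261 bp), 89282467 to 89282641 and 89349068 to 89349198, stood at places 26382, 25288 and 24430. They lay 64.7 kb, 117 kb and 139 kb from the nearest nasal peak.

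The other 3 nasal peaks at Nog lay 64.7 kb or more from any rib peak. They lay at 89026728 to 89026914, 89048301 to 89048552 and 89048697 to 89048868, the last 2 of them 144 bp apart, at places 15122, 9308 and 11891. They fell in the longest stretch of the window without a rib peak, of 203 kb. No rib peak at Nog had a rib neighbour within 10 kb, against 7 of 8 at Gdf5, 5 of 12 at Bmpr1b and 4 of 9 at Bmp2. Over all 33 rib members the share with such a neighbour was 48.5% (30.8% to 66.5%), beside 52.9% of all rib peaks. In chains of 3 or more stood 8 of the 33, beside 28.3% of all rib peaks.

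Places in the rib list differed between the windows. The lists carry no score, and no source used here explains their order. The median place was 7665 at Bmp2, 13034 at Gdf5, 15222.5 at Bmpr1b and 24859 at Nog, beside 13828.5 for the whole list. In the first 50% of the list stood 7 of 9 rib peaks at Bmp2, 4 of 8 at Gdf5, 6 of 12 at Bmpr1b and none of 4 at Nog. Nasal peaks overlapped 4 of these 17 early rib members, or 23.5% (6.81% to 49.9%), beside 56.3% of all rib peaks in the first 50% of the list. The 7 early Bmp2 peaks make up most of the early members without a nasal peak. The shared rib members stood at a median place of 12495.5 and the 25 others at 13056.

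**Figure D4:**
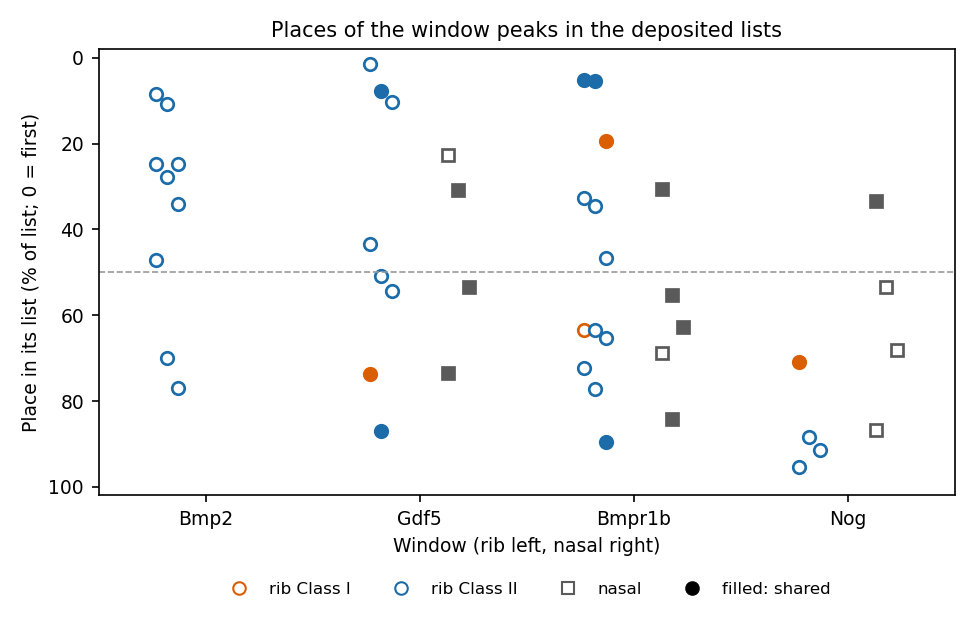
Place of each member in its own list, as a percentage of the list with the first peak at the top, rib on the left (circles) and nasal on the right (squares) in each window. Filled symbols are shared with the other tissue: at Bmp2 7 of 9 rib peaks stand in the first 50% of the list without a nasal counterpart, and at Nog all 4 stand beyond it.

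Bins with at least as many rib peaks as the window were set beside the other windows in the same way. Among bins of 160 kb with at least 8 rib peaks, as at Gdf5, 33.7% held 4 or fewer nasal peaks. The share was 12.3% for 5 or fewer among bins of 460 kb with at least 12, as at Bmpr1b, and 45.2% for 4 or fewer among bins of 400 kb with at least 4, as at Nog. Each share includes bins with more rib peaks than the window itself, so it is not matched for their number. These bins begin at fixed positions and no test was made between them.

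Which peaks act on which gene was not measured. In the RefSeq gene order of GRCm38.p6, Bmp2 stands between Fermt1 and Hao1, Gdf5 between Uqcc1 and Cep250, Bmpr1b between Unc5c and Pdlim5, and Nog between Gm525 and Ankfn1, and peaks were not divided among these neighbours, since gene positions on mm9 were not used here. Peak widths in the windows ran from 35 to 390 bp with a median of 175 bp in the rib list and from 31 to 290 bp with a median of 183 bp in the nasal list, beside medians of 180 and 182 bp in the whole lists.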

How the data were processed

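The authors deposited 4 peak lists of chromosome, start and end, namely all rib peaks, their Class I and Class II parts and all nasal peaks. The list of all rib peaks is labelled unfiltered, and the nasal list carries no such label. What filter this refers to, and whether the nasal peaks passed one, is not stated. Positions are on mm9, the build that the submitters' processing notes name. Aligner, peak caller, control library and the meaning of the classes are stated in none of the sources used here. Starts were raised by 1, and a peak belonged to a window by its centre. Overlap meant at least 1 shared bp. Shares carry 95% exact (Clopper-Pearson) binomial intervals and densities exact Poisson intervals, and neither tissue had a replicate, so no test was run. Densities used each chromosome from position 1 to its last peak, and bins were laid from position 1. Members and lists were chosen with earlier results of these data known. Further BMP pathway genes, planned for description, need an mm9 annotation and were not analysed here. Within a window the text names the first peak of each list, chains of 3 or more rib peaks with gaps of at most 10 kb, the widest rib peak and Class I peaks. Peaks named beyond this rule were chosen after their values were seen. They are the other shared pairs, near misses, nasal peaks without a rib counterpart and peaks just outside a window. The remaining rib peaks of Bmp2, Bmpr1b and Nog are also among them. Overlap routines were tested on simulated lists. Python 3.11.15, numpy 2.4.6, scipy 1.17.1 and matplotlib 3.10.9 were used.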

Additional observations from a re-analysis of the deposited data

How the results depend on the processing

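Of 20 recomputed values over the windows together, 16 stayed within the interval of the value reported. With the first 50% of each list by place, nasal peaks overlapped 5.88% of 17 rib members, beside 38.5% in the whole lists so shortened, and rib peaks overlapped 25% of 4 nasal members, beside 61.0%. With an overlap of 50% required of both peaks, the share of nasal members was 30.8%, beside 45.1%. With the rib list as long as the nasal list, a setting added after the data were seen, it was 30.8% as well, beside 52.2%. Why these values moved was not tested. The rib share ranged from 5.88% to 35.6% over the settings run, the highest with windows widened by 50 kb on each side (also added). Widening took in the rest of the Gdf5 chain and other peaks near Gdf5 and Bmpr1b. With 50% of both peaks required, the rib share was 12.1%, beside 28.4% in the whole list. It was 27.3% with centres within 200 bp, beside 43.3%, and 33.3% with gaps of up to 1 kb, beside 49.9%. With the rib list as long as the nasal list it was 21.05%, beside 51.86%. Each window holds few peaks, so its shares are imprecise.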
